A study of Mus musculus with 6 samples.

Results

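Rnase4, Ang, Rnase6 and Rnh1 are 3 secreted ribonuclease genes and the gene of the cytosolic protein that inhibits such ribonucleases. They were taken as every non-control probe that carries one of these names in the scanner files, which gave 4 genes with 1 probe each, of 34821 gene names and 55681 probes on the array. Rnase4 was chosen by its array signal, which differed between the genotypes on these same arrays, so its genotype difference is a description and carries no test. The others were added as the gene that shares its locus, a related ribonuclease and the inhibitor, and they are described in the same way.

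The enzymes of the RNase A family are small secreted proteins, held together by disulfide bonds, that cut RNA after pyrimidines. Angiogenin (Ang) is a weak general ribonuclease that can enter cells and cleave tRNA in the anticodon loop. In bone marrow it is known as a niche factor that restrains the cycling of primitive stem and progenitor cells. Rnase4 prefers to cut after uridine and shares a promoter and noncoding first-exon sequence with Ang. Rnase6 is an antimicrobial member made by leukocytes, and Rnh1 binds family members very tightly and keeps them from degrading cellular RNA.

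The cells were LSK cells, the sorted bone marrow fraction that lacks lineage markers and carries Sca-1 and Kit, which contains the blood stem cells and early progenitors. There were 3 samples from wild-type mice, numbered 1, 3 and 5, and 3 from NIKaly/aly mice, numbered 2, 4 and 6, with no treatment or time course named in the labels. The aly allele is a point mutation of Map3k14 that leaves the NF-kappaB-inducing kinase NIK unable to drive the alternative NF-kappaB pathway, and being inherited it is present in every cell of the animal, the marrow niche included. The labels give no strain, age or sex, and do not say whether a sample is 1 animal or a pool, so the spread between samples may be in part technical. Each sample was labelled with Cy3 and hybridised to 1 Agilent array.

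Signal strength differed between arrays. The 75th percentile of the processed signal ranged from 47.0 in wild-type sample 1 to 225 in wild-type sample 3, and the share of the 59305 non-control spots that the scanner software called well above background was 33.1% to 45.6%. Levels are therefore given as log2 of the processed signal over the array's own 75th percentile, where 0 is that percentile; a level of 1 probe is not comparable with that of another probe. With limma and Benjamini-Hochberg adjustment, 0 of 15682 tested genes (0%) passed an adjusted p of 0.05, and 208 (1.33%) had an unadjusted p under 0.05. The sort markers Kit, Flt3 and Cd34 were well above background on all 6 arrays, as were Sca-1 (Ly6a) and 5 of 6 markers of the lineages that the gate removes, with Cd8a well above background on none. These are bulk samples, in which fewer cells of a type and less RNA per cell cannot be told apart.

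The start regions are shown first, because Rnase4 and Ang share one. Sequences are the 250 bases before each annotated start, from RefSeq on GRCm38.p6, and capitals mark matches to the motifs named below. RefSeq gave 2 starts for Rnase4, 1 for Ang, 3 for Rnase6 and 3 for Rnh1, and the first Rnase4 window is letter for letter the Ang window. The first line is that shared window (chr14:51090827-51091076, plus strand), the second is the window of Rnase4 alone (chr14:51095750-51095999, plus strand), the third belongs to Rnase6 (chr14:51128814-51129063, plus strand) and the fourth to Rnh1 (chr7:141168687-141168936, minus strand).
Ang and Rnase4 shared start: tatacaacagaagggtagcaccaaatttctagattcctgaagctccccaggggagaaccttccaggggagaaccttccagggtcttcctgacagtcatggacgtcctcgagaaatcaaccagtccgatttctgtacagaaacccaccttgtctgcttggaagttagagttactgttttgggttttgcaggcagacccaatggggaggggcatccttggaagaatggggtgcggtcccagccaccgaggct
Rnase4 second start: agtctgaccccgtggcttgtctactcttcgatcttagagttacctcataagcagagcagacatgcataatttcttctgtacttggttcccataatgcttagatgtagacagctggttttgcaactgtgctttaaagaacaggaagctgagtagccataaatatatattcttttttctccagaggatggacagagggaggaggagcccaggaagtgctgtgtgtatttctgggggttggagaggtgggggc
Rnase6 first start: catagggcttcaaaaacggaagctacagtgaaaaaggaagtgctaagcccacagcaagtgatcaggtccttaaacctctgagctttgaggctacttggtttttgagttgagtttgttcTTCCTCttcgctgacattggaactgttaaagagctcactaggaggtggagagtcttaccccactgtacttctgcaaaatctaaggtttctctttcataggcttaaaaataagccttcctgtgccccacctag
Rnh1 start: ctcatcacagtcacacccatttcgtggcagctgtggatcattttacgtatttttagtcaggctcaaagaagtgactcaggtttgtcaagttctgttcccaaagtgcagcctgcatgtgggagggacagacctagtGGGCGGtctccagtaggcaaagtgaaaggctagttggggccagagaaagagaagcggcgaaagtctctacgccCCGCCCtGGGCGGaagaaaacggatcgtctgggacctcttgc

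The shared Ang and Rnase4 window had 52.4% G and C and 5 CpG dinucleotides, close to the median window (52.4% and 6 CpG). The window of Rnase4 alone had 46% G and C and 2 CpG. Both strands were searched for the NF-kappaB consensus, the PU.1 core GAGGAA, the TATA box TATAAA and the GC box GGGCGG, which occur in 3.90%, 23.3%, 12.4% and 32.7% of 32817 windows of this length. Neither Rnase4 window held any of these letters, and no window of a member held the NF-kappaB consensus. The Rnase6 window shown had 1 GAGGAA on the reverse strand, 132 bases before the start, and its other, overlapping window holds the same match. The Rnh1 window shown had 3 GGGCGG matches, 115, 42 and 35 bases before the start, and another Rnh1 window had 1 TATAAA, 188 bases before the start. A match is a string of letters and not a measured binding site.

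Rnase4 read higher in every NIKaly/aly sample than in any wild-type sample. Its probe lies on the plus strand of chromosome 14 from 51725036 to 51725095 in mm9, the build of the scanner files. The processed signal was 5.93, 50.6 and 12.0 in wild-type samples 1, 3 and 5, and 138, 153 and 31.8 in NIKaly/aly samples 2, 4 and 6. Relative to the 75th percentile, these signals were 12.6%, 22.5% and 15.0% of it in wild type and 110%, 75.8% and 62.7% in NIKaly/aly. The groups overlapped on the raw scale, where NIKaly/aly sample 6 lay below wild-type sample 3 on its much brighter array, and did not overlap once each array was scaled.

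On the log2 scale the Rnase4 level was -2.99, -2.15 and -2.74 in wild type and 0.14, -0.40 and -0.67 in NIKaly/aly. The means were -2.63 ± 0.43 and -0.31 ± 0.41 (SD, n = 3 each), and the difference was 2.31 ± 0.43 (SE), or 4.97-fold. In wild-type samples 1 and 5 the probe was not well above background. With those signals raised to the lowest level well above background on their arrays, the difference was 1.70, or 3.25-fold. With normexp background correction and an added offset of 50, which compresses dim signals, it was 0.75. The lowest NIKaly/aly sample lay 1.48 above the highest wild-type sample, and 0.93 above it with the raised signals. Of 15682 tested genes, Rnase4 had the 10th highest difference as measured and the 12th highest with such signals raised for every gene. Among tested genes, 420 (2.68%) read higher in NIKaly/aly with no overlap of the groups, and 63 (0.402%) did so with at least a 2-fold difference. At least a 2-fold difference with an unadjusted p under 0.05 was found for 139 tested genes (0.886%), 56 of them higher (0.357%). Since Rnase4 was chosen for this contrast, its place among them is no separate evidence.

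The wild-type level of Rnase4 was close to the limit of detection. The probe was well above background in 3 of 3 NIKaly/aly samples but in wild type in sample 3 only, and its mean wild-type level stood at the 1.85th percentile of tested genes. The lowest level that counted as well above background was -1.61, -3.74 and -2.28 on the wild-type arrays, so the Rnase4 values of samples 1 and 5 are below what those arrays could resolve. The groups stayed apart under each alternative scaling, under normexp and with unresolved signals raised to the array limits. The other alternatives left the scaled Rnase4 values unchanged or only left samples out, so they could not have made the groups overlap. Over all 18 alternatives computed for Rnase4 the difference was 0.75 to 2.55. Wild-type sample 3 and NIKaly/aly sample 4, the neighbouring arrays on which both readings were well above background, differed by 1.75.

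**Figure D1:**
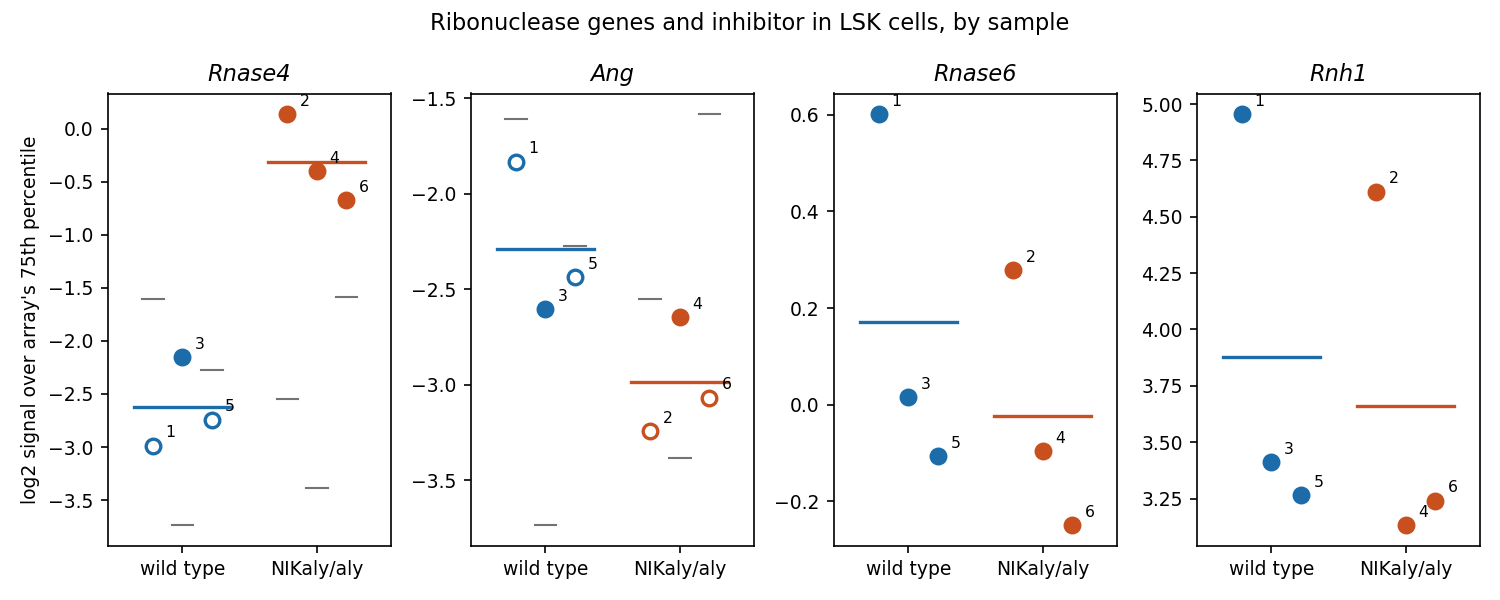
Log2 level of each member (vertical axis, log2 signal over the array's 75th percentile) in wild-type and NIKaly/aly samples, numbered by sample; open symbols are signals not well above background, coloured lines are group means, and grey ticks in the Rnase4 and Ang panels mark the lowest level well above background on that sample's array. The Rnase4 groups do not overlap, by 1.48 at the nearest samples or 0.93 with open symbols raised to their ticks. Ang is near or under the limit of detection, with groups apart by 0.043 as drawn and overlapping with open symbols raised. The groups of Rnase6 and Rnh1 overlap.

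Ang was close to or under the limit of detection on every array. Its probe starts 3698 bases before that of Rnase4, at 51721338 to 51721397 on chromosome 14 of mm9. Wild-type samples 1, 3 and 5 gave a processed signal of 13.2, 37.0 and 14.8, and NIKaly/aly samples 2, 4 and 6 gave 13.3, 32.2 and 6.06. It was well above background in 1 sample of each genotype, samples 3 and 4, so Ang was not among the tested genes. Those 2 readings were nearly equal, at -2.60 and -2.65.

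The Ang level in the remaining samples was -1.83 and -2.44 in wild type and -3.24 and -3.07 in NIKaly/aly, all of them signals that the arrays did not resolve. The means were -2.29 ± 0.41 and -2.99 ± 0.31 (SD, n = 3 each), with a difference of -0.69 ± 0.61 (SE). Wild type lay above NIKaly/aly in all samples, by 0.043 at the nearest; without the filter on dim probes, 440 of 34773 genes (1.27%) had NIKaly/aly lower with no overlap. With unresolved signals raised to each array's limit the Ang difference was -0.098 and the groups overlapped, and with normexp it was -0.19. A genotype difference in Ang was thus not measurable on these arrays in either direction.

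Rnase6 had the best measured probe of the set, since it is printed 10 times on each array. The probe lies at 51750572 to 51750631 on chromosome 14 of mm9, 25536 bases from that of Rnase4. The mean signal of its spots was 71.5, 228 and 74.7 in wild type and 152, 189 and 43.2 in NIKaly/aly, and 2 of the spots of wild-type sample 3 carried an outlier flag and were left out. Repeated spots varied by 4.52% to 15.9% (coefficient of variation), which is an SD of 0.066 to 0.24 on the log2 scale. The spread was widest on the array of NIKaly/aly sample 6, which also had the dimmest spots.

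The Rnase6 level was 0.60, 0.016 and -0.11 in wild type and 0.28, -0.097 and -0.25 in NIKaly/aly. The means were 0.17 ± 0.38 and -0.023 ± 0.27 (SD, n = 3 each), and the difference was -0.19 ± 0.32 (SE). The groups overlapped, and samples 1 and 2 were the highest of their genotypes. Within neighbouring arrays the differences were -0.32, -0.11 and -0.14. Without wild-type sample 1 the sign turned, to 0.023, and without NIKaly/aly sample 2 the difference was -0.34. The Rnase6 difference was smaller than the spread between samples of a genotype.

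**Figure D2:**
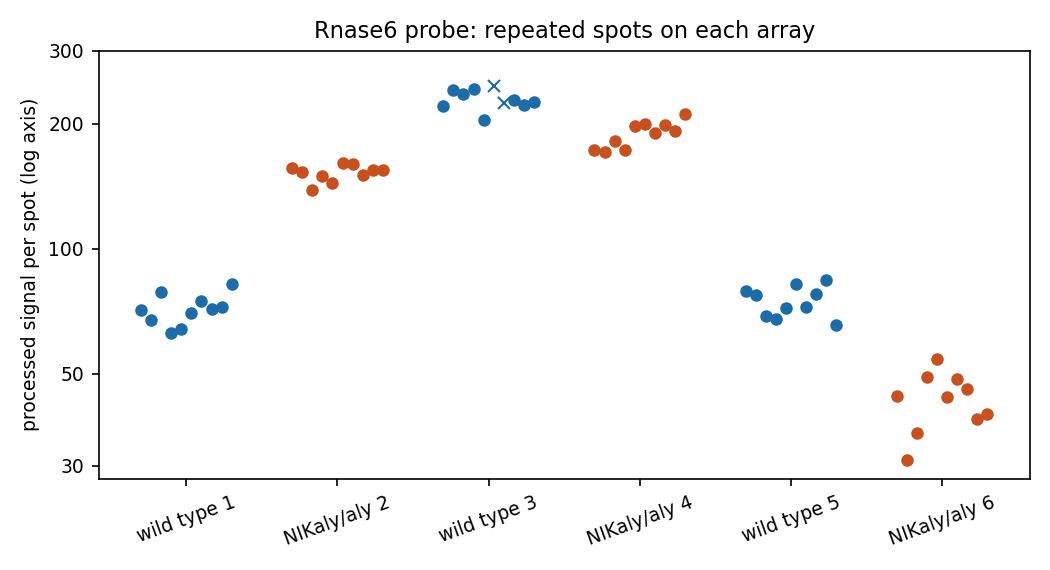
Processed signal of each repeated Rnase6 spot (vertical log axis) on each array (horizontal axis), with 1 point per spot, blue for wild type and orange for NIKaly/aly, and crosses for the 2 spots left out. Spots of 1 array lie close together, with a coefficient of variation of 4.52% to 15.9%, while arrays differ in brightness.

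Rnh1, the inhibitor, was bright on every array. Its probe lies on the minus strand of chromosome 7 from 148349098 to 148349157 in mm9. The level was 4.96, 3.41 and 3.27 in wild type and 4.61, 3.13 and 3.24 in NIKaly/aly, so samples 1 and 2 stood above the other 4 whatever their genotype. The means were 3.88 ± 0.94 and 3.66 ± 0.82 (SD, n = 3 each), with a difference of -0.22 ± 0.56 (SE) and overlapping groups. Within the neighbouring arrays 1 and 2, 3 and 4, and 5 and 6, NIKaly/aly minus wild type was -0.34, -0.28 and -0.024, and with these neighbours as a block the SE was 0.13. The labels do not pair the samples. Leaving out 1 array of such neighbours gave 0.32 without wild-type sample 1, 0.048 without NIKaly/aly sample 4 and -0.69 without NIKaly/aly sample 2.

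**Figure D3:**
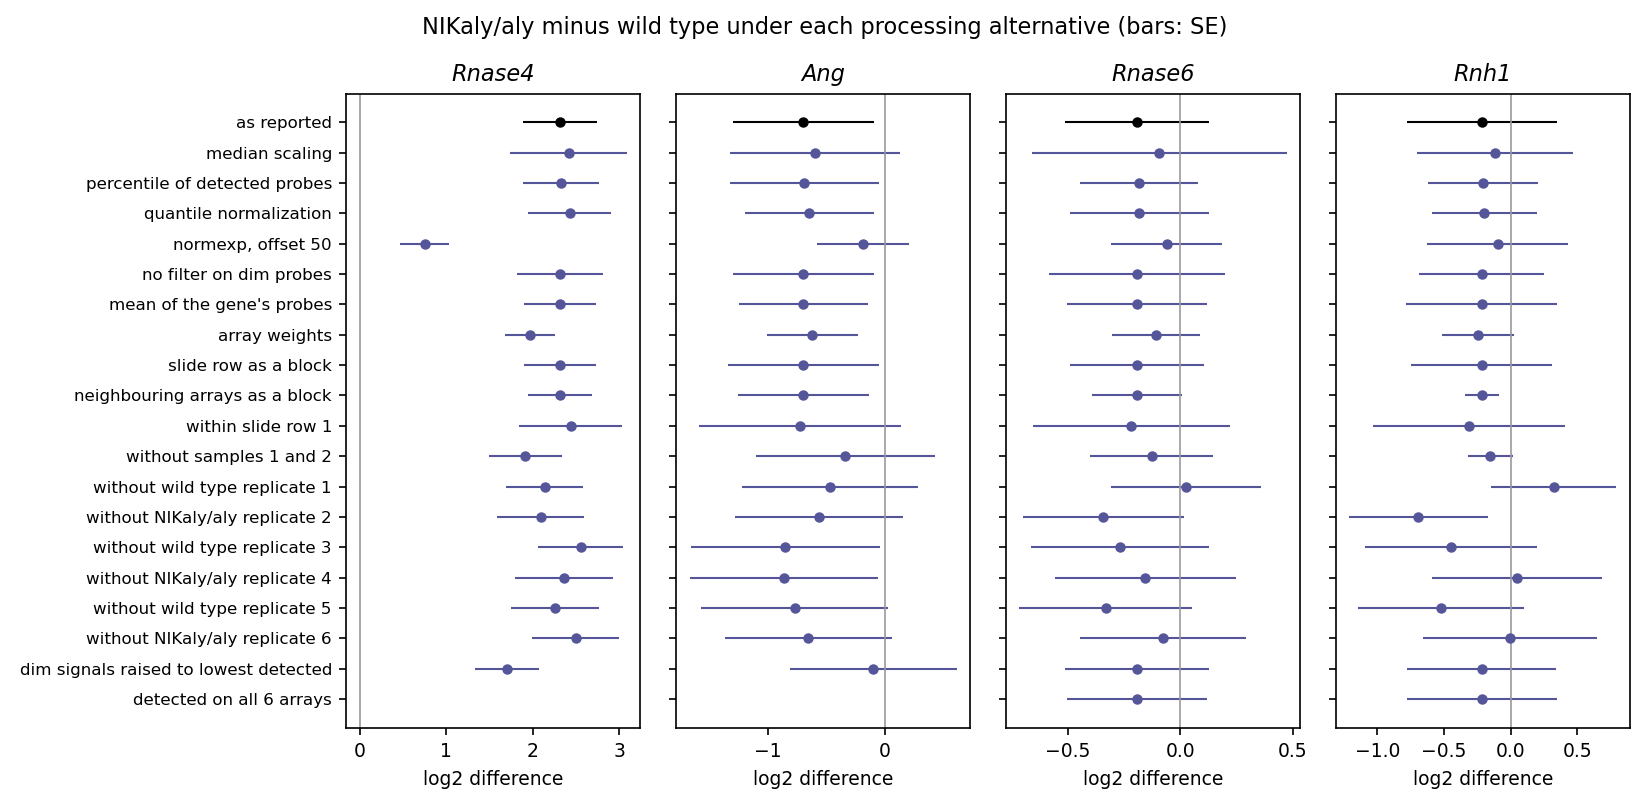
Log2 difference of each member, NIKaly/aly minus wild type (horizontal axis), under each processing alternative (rows), with bars for the SE where a fit gave one and a vertical line at 0. Rnase4 stays to the right of 0, from 0.75 to 2.55; Ang stays to the left, at -0.098 where it is nearest; Rnase6 and Rnh1 lie around 0.

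The region around Rnase4 was examined next, to see whether neighbouring genes read higher too. Within 500 kb on either side the array had 50 probes, of which 28 were well above background on no array and 14 on all 6. Of the 15 other tested genes, 3 read higher and 12 lower in NIKaly/aly, with a median difference of -0.20, against -0.0081 over all tested genes. Rnase4 was the 1 tested gene of this window that read higher without overlap. Another 2 tested genes read lower without overlap, where 1.89% of all tested genes did so. These were Pnp2, a copy of the purine nucleoside phosphorylase gene (-2.36 ± 0.79 SE as measured, and -1.58 with unresolved signals raised to the array limits), and the unnamed transcript BC128469 (-1.49 ± 0.54 SE). Neither passed the adjusted threshold. Among probes not tested, Ang (-0.69) and Rnase12 (-2.01), each resolved on 2 arrays only, also read lower without overlap as measured. Over all genes without the filter on dim probes, 1.27% did so.

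Pnp2 read 0.57, -1.41 and -1.33 in wild type and -4.44, -2.76 and -2.03 in NIKaly/aly, and was well above background in 3 wild-type samples but 1 NIKaly/aly sample. Its near copy Pnp, which recycles purine nucleosides, differed by -0.22 ± 0.45 (SE), and signal shared between the copies was not tested. No other tested gene of the window had its groups apart. The DNA repair endonuclease gene Apex1 differed by -0.14 ± 0.49, the tRNA-modifying Osgep by 0.18 ± 0.48, the poly(ADP-ribose) polymerase gene Parp2 by 0.23 ± 0.32, Tep1 of the telomerase and vault particles by -0.35 ± 0.27, Ttc5 by -0.33 ± 0.28, Tmem55b by -0.09 ± 0.37 and the vomeronasal receptor gene Vmn2r88 by -0.45 ± 0.92 (SE each). The transcripts NAP112768-1 and NAP094322-001 differed by 0.16 ± 0.31 and -0.03 ± 0.31 (SE each). Ccnb1ip1, a meiotic recombination gene, was well above background in 2 NIKaly/aly samples and no wild-type sample, with overlapping groups.

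**Figure D4:**
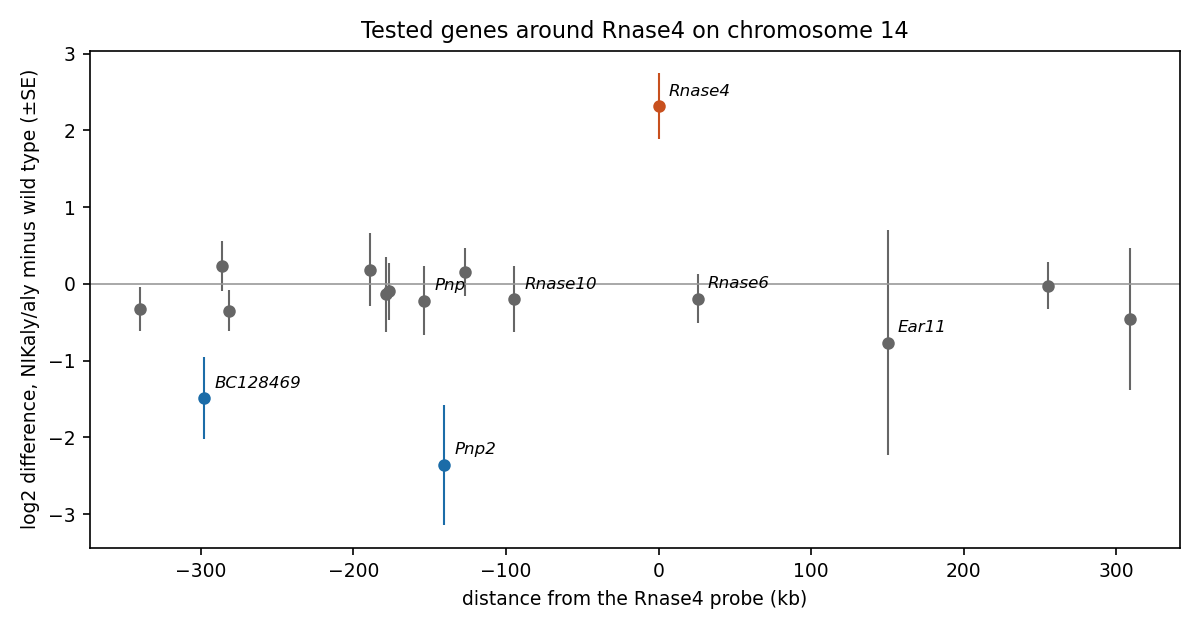
Log2 difference of each tested gene, NIKaly/aly minus wild type with its SE (vertical axis), against distance from the Rnase4 probe in kb (horizontal axis), orange where the groups were apart and NIKaly/aly higher, blue where they were apart and it was lower, grey where they overlapped. Rnase4 at 2.31 is above the other tested genes shown; with unresolved signals raised to the array limits, Rnase4 is at 1.70 and Pnp2, drawn at -2.36, is at -1.58.

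The rest of the RNase A family was read from a list of 24 genes, 18 of them on the array as distinct names. Of these, 10 were well above background on at least 1 array and 8 were tested. None passed the adjusted threshold, 1 read higher and 7 lower in NIKaly/aly, and the median difference was -0.40. Over all tested genes 51.5% read lower and the median was -0.0081. Most of the 8 were the Ear genes described below, whose probes can share signal and whose SEs were 1.45 to 1.70. The 8 are thus not independent readings. Rnase1, Rnase9, Rnase11, Rnase13, Ang2, Ang3, Ear4 and Rnase2b, listed as Ear5 in the files, were well above background on no array. Rnase10, a reproductive-tract member, differed by -0.20 ± 0.43 (SE), and Ang4, an intestinal antimicrobial member resolved on 3 arrays, by -0.37 ± 0.73 (SE). Rnase12 was well above background in 2 wild-type samples and no NIKaly/aly sample. Ear7 was well above background in NIKaly/aly sample 2 only.

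The eosinophil-associated ribonuclease genes (Ear), whose products are stored in eosinophil granules, split the samples in another way. Ear2 read 5.93, 1.21 and 4.57 in wild type and 5.55, -0.60 and 4.46 in NIKaly/aly. Samples 3 and 4, one of each genotype, were thus far below the other 4. Ear1, Ear6, Ear10, Ear11 and Ear12 were likewise lowest in samples 3 and 4, with differences between genotypes of -0.43 ± 1.70, 0.10 ± 1.61, -0.42 ± 1.47, -0.77 ± 1.47 and -0.33 ± 1.45 (SE each). The Ear genes are near-identical copies, so their probes can share signal and they are not independent readings.

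The eosinophil granule gene Prg2 followed the same samples, at 5.68, 0.99 and 3.93 in wild type and 5.02, -1.32 and 3.86 in NIKaly/aly. Prg3 and the eosinophil peroxidase gene Epx were also lowest in samples 3 and 4. The pattern was not particular to eosinophil genes. Every tested mature neutrophil gene was lowest in samples 3 and 4 too. Camp, for example, read 10.18, 7.29 and 8.88 in wild type and 9.71, 7.19 and 9.08 in NIKaly/aly. The lineage marker Ly6g shared the pattern, while Itgam and the B cell gene Blnk did not. Samples 3 and 4 also had the highest array 75th percentiles, 225 and 201, whose part in the pattern was not tested. Over all 9 eosinophil, basophil and mast cell markers, 8 were tested, 2 read higher and 6 lower, Ms4a2 was well above background on no array, and the summed level (signal over the array's 75th percentile) was 11.8 to 75.7 in wild type and 7.68 to 55.5 in NIKaly/aly. The part of these cells in the Ear signal was not tested. As measured, samples 3 and 4 were neither the lowest nor the highest of the 6 Rnase4 values. Wild-type samples 1 and 5, which read below sample 3, were not resolved, and a part of eosinophils in the Rnase4 signal was not tested.

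**Figure D5:**
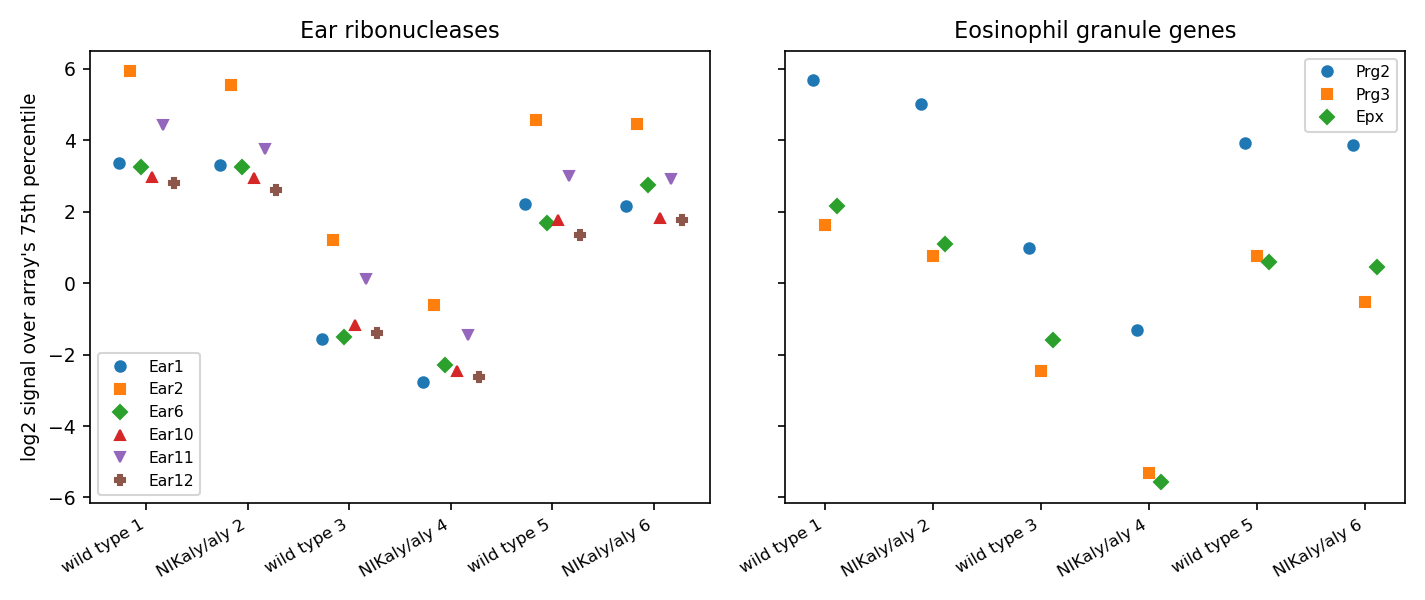
Log2 level (signal over the array's 75th percentile) of 6 Ear ribonuclease genes and of 3 eosinophil granule genes in each sample (horizontal axis), with 1 symbol per gene. Every gene is lowest in samples 3 and 4, of opposite genotype; Ear2 reads 1.21 and -0.60 there and at least 4.46 elsewhere.

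The angiogenin receptor and genes tied to the cleavage, protection or processing of tRNA were read next, and no difference was larger than its SE. Differences of about that size could not be resolved with 3 samples of each genotype. The list held the angiogenin receptor Plxnb2, the tRNA methyltransferases Nsun2 and Trdmt1 whose marks protect tRNA from cleavage, the tRNA 3′ processing enzyme Elac2, and Ybx1, which binds the fragments of cleaved tRNA. All 5 were well above background on all 6 arrays; 0 passed the adjusted threshold, 3 read higher and 2 lower, with a median of 0.082. Plxnb2 differed by -0.01 ± 0.32, Nsun2 by 0.19 ± 0.34, Trdmt1 by 0.30 ± 0.30, Elac2 by -0.04 ± 0.34 and Ybx1 by 0.08 ± 0.42 (SE each).

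Ribonucleases of other families were read in the same way. Of 13 tested genes 5 read higher and 8 lower, none passed the adjusted threshold and the median was -0.015. The extremes were the nuclear exonuclease gene Xrn2 at 0.31 ± 0.26 and the RNase H2 subunit gene Rnaseh2c at -0.40 ± 0.59 (SE each). Lysosomal Rnaset2a differed by -0.01, Rnaseh1 by 0.14, Rnaseh2a by -0.04, Rnaseh2b by 0.18, the microRNA processors Dicer1 and Drosha by -0.02 and -0.06, and the exosome nucleases Dis3 and Exosc10 by 0.18 and -0.11. The cytoplasmic exonuclease gene Xrn1 differed by 0.08 and Rnasek by -0.12.

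Markers of other cells that could carry ribonuclease RNA were read beside Rnase4. Of 12 macrophage and dendritic markers 7 were tested and 7 read lower in NIKaly/aly, with a median of -1.01, against 51.5% of all tested genes reading lower; the groups overlapped for 5 of the 7, and none passed the adjusted threshold. The summed level was 30.6 to 51.7 in wild type and 19.8 to 25.0 in NIKaly/aly, and 47.5% to 75.7% of it came from 1 bright probe, that of the growth factor receptor gene Csf1r (-1.17 ± 0.33 SE). Without Csf1r the sums were 7.79 to 14.6 and 6.20 to 10.9 and overlapped. Besides Csf1r, the dimmer Itgax read lower without overlap (-1.01 ± 0.38 SE), where 1.89% of all tested genes did so. Mrc1, Cd163 and Siglec1 were well above background on no array. Of 15 stromal and endothelial markers 7 were tested, 1 read higher and 6 lower, and the summed level was 15.1 to 28.2 in wild type and 13.7 to 27.0 in NIKaly/aly. Cdh5, Col3a1, Pdgfra, Alpl, Dcn and Lum were well above background on no array.

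In the other marker lists, all tested mature neutrophil genes (10 of 10), B cell genes (9 of 9) and lineage markers (5 of 5) read lower in NIKaly/aly. Of all tested genes, 51.5% did so. The medians of these 3 lists were -0.17, -0.75 and -0.24, but the groups overlapped for every one of their tested genes. The SE of a neutrophil gene was 0.62 to 0.95, and the summed neutrophil level was 1140 to 7614 in wild type and 1247 to 4398 in NIKaly/aly. Of 5 tested erythroid genes 1 read higher and 4 lower. Of 7 tested sort markers 5 read higher and 2 lower, and Slamf1 was resolved on 2 arrays only. The groups overlapped for 6 of the 7. Procr read higher in NIKaly/aly without overlap (0.78 ± 0.28 SE), where 2.68% of all tested genes did so, and it did not pass the adjusted threshold. The part of these lists in the levels of the members was not tested.

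The genes whose profiles over the 6 samples lay nearest to each tested member were listed by root-mean-square distance between mean-centred log2 levels, among 10660 genes with a plain symbol. Nearest to Rnase4 were Bex2 (0.37), the adhesion molecule gene Chl1 (0.45), the peptide-amidating enzyme gene Pam (0.49), the prostaglandin transporter gene Slco2a1 (0.54) and Raver2 (0.56). Their likeness to Rnase4 sets their higher NIKaly/aly levels, which are thus no finding, and none was well above background on all 6 arrays. Bex2, for example, read -2.94, -2.44 and -3.64 in wild type and -0.88, -1.16 and -1.23 in NIKaly/aly.

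Rnase6 had much closer neighbours, namely Capn10 (0.034), Scamp2 (0.036), Xrcc1 (0.039), Lyl1 (0.042) and Gmppa (0.042). Lyl1, a transcription factor of blood stem cells, read 7.63, 6.96 and 6.89 in wild type and 7.25, 6.98 and 6.72 in NIKaly/aly. Nearest to Rnh1 were Tmem238 (0.044), Tsta3 (0.047), Prmt7 (0.049), Eif6 (0.054) and Gpx4 (0.060), all highest in samples 1 and 2. Gpx4, which detoxifies lipid peroxides, read 7.70, 6.09 and 5.89 in wild type and 7.21, 5.89 and 5.89 in NIKaly/aly. These lists are descriptions over 6 samples that share arrays and scaling.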

How the data were processed

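The authors' deposited scanner files give spot intensity values extracted with Agilent Feature Extraction 10.7.3.1 and probe positions on mm9, per the file headers. The deposited series table is a ratio, which the values show to be each spot's processed signal over the array's median. Control spots and outlier-flagged spots were left out, no spot was saturated, levels are log2 of processed signal over the array's own 75th percentile, and spots of 1 probe were averaged. Probes well above background on at least 3 of 6 arrays were tested, with the brightest probe per gene name, in limma 3.58.1 (R 4.3.3; lmFit, eBayes with trend, 4 residual degrees of freedom, two-sided, Benjamini-Hochberg at 0.05), with genotype as the only term. The procedure was run on simulated data with independent errors. Such data hold no effects shared by the genes of an array, so how the fit handles those was not checked. The number of arrays limits the precision.

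Members and lists were chosen with earlier results of these data known. Named were all members, list and locus genes well above background on at least 1 array, up to 3 of the brightest markers of a list, and the 5 nearest profiles per tested member. Ly6a, Slamf1, Procr, Itgax, Prg3, Epx, Camp, Ly6g, Itgam, Blnk and markers resolved on no array were named after their values were seen. Single values of a few list genes are not reported here. Promoter windows came from a RefSeq table on GRCm38.p6, on which no array coordinate was placed. Alternatives covered scaling, background correction, the filter on dim probes, several probes per gene, array weights, slide row and neighbouring arrays as blocks, and samples left out.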

Additional observations from a re-analysis of the deposited data

How the results depend on the processing

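Rnase4 stayed higher and Ang lower in NIKaly/aly under all 18 alternatives computed for each, several of which left the scaled values unchanged. For Ang, mostly unresolved, the constant sign does not make a difference measurable. Rnase4 and Ang both moved by more than the spread between samples under normexp correction (0.75 and -0.19). They also did so with unresolved signals raised to the array's limit (1.70 and -0.098), an alternative chosen after seeing the data. Leaving out 1 sample gave 2.09 to 2.55 for Rnase4. Rnase6 was lower in 18 of 19 alternatives and Rnh1 in 17 of 19. The filter for all 6 arrays gave no value for Rnase4 or Ang.

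The number of genes past an adjusted p of 0.05, 0 as reported, was 10 with median scaling, 1 with normexp, 2 without the filter on dim probes, 5 with array weights, 2 with neighbouring arrays as a block, and 0 to 1 when 1 sample was left out (1 without wild-type sample 3). Genes that differed 2-fold or more at an unadjusted p under 0.05 numbered 139 as reported, 42 with normexp, 57 with the filter for all 6 arrays, 251 with no filter on dim probes, 244 with array weights, 255 with neighbouring arrays as a block and 90 within slide row 1. Genes with no overlap of the groups numbered 716 as reported, 248 with median scaling, 323 with normexp, and, with fewer samples to overlap, 2418 within slide row 1, 3941 without samples 1 and 2, and 1364 to 2451 when 1 sample was left out. Median scaling moved the median difference of all genes from -0.0081 to 0.091 and the share of genes reading higher from 48.5% to 64.6%. Where no cause is named, the cause was not tested. The labels pair no samples, since the genotypes share no sample number; the neighbouring arrays used as a block follow the slide.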
